A study of Homo sapiens with 58 samples.

Results

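TFPI and TMEM123 were described here as targets of HuR, the RNA-binding protein encoded by ELAVL1, through every peak that the deposited table names for either gene. That gave 126 of the 387214 peaks of the series, 88 for TFPI and 38 for TMEM123. Both genes were selected on measured values, the log2 differences of single peaks between arsenite and mock in the cytoplasmic fraction, where 1 3'UTR peak of each fell the most. All values of the cytoplasmic arsenite comparison are therefore given as a description, without a test. The same holds where cytoplasmic libraries were set against nuclear ones.

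HuR binds uridine-rich and AU-rich stretches, mostly in introns and 3'UTRs, shuttles between the nucleus and the cytoplasm, and is known for stabilising the mRNAs it binds. TFPI encodes tissue factor pathway inhibitor, a secreted Kunitz-type inhibitor that blocks factor Xa and the complex of tissue factor with factor VIIa, at the first step of coagulation. TMEM123, also called porimin, encodes a heavily glycosylated membrane protein of the sialomucin kind found at the cell surface. Arsenite causes oxidative stress, under which translation is curtailed and many mRNAs gather in stress granules, of which G3BP1 is a core protein.

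The 58 libraries were HuR CLIP-seq libraries, that is, RNA fragments crosslinked to HuR by UV and recovered with a HuR antibody, from Huh-7.5, a human hepatocellular carcinoma line. Arsenite libraries came from cells exposed to sodium arsenite at 0.5 mM over 45 min, and mock libraries from cells without it. Parental Huh-7.5 cells without an APEX reaction were split into a cytoplasmic and a nuclear fraction, with 3 libraries for each fraction and treatment. The other 46 libraries came from lines that carry APEX, a peroxidase that biotinylates proteins near it, fused to a nuclear localisation signal (NLS), a nuclear export signal (NES) or G3BP1 (G3BP), and all of these cells went through the biotinylation reaction. Their 17 input libraries hold HuR from whole cells (NLS 2 mock and 2 arsenite, NES 2 and 2, G3BP 4 and 5). Their 29 enriched libraries had an added streptavidin capture of biotinylated protein (NLS 4 and 4, NES 4 and 4, G3BP 6 and 7). The promoter driving APEX, and whether a line is 1 clone, are not given in the sources used here. The labels do not say that replicates came from separate cultures, so p-values measure the spread between these libraries, which may be technical.

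Fraction libraries held 686263 to 1759090 tags, of which 235471 to 673322 lay in listed peaks. Input libraries held 17051 to 2622677 tags and enriched libraries 4662 to 944225. Values are in CPM, the tags per 1000000 tags of the library. A CLIP value rises with the amount of an RNA and with the share of it bound by HuR, and these cannot be told apart from the table. The 12 fraction libraries form 1 library set of their own, so fractionation and that set cannot be told apart from the APEX libraries' 3 sets. The hepatocyte genes ALB, APOB and FGB had enough 3'UTR tags to be tested in the fractions, and APOA1 did not. This cannot check the labelled cell type, since 6689 of the 7623 genes with 3'UTR peaks were tested in the cytoplasmic arsenite comparison.

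TFPI lies on the minus strand of chromosome 2 (ENSG00000003436, GRCh38.p14), with RefSeq limits of 187464230 and 187554435. Of its 88 peaks the table places 14 in the 3'UTR, 41 in introns, 24 in the class CDS_Retained_intron, 8 in the class TE and 1 in CDS. Over all 58 libraries the 3'UTR peaks held 1410 tags and the others 2012. TMEM123 lies on the minus strand of chromosome 11 (ENSG00000152558), with limits of 102396332 and 102452765. Its 38 peaks were 14 in the 3'UTR with 807 tags and 24 in CDS_Retained_intron with 334 tags. These pooled totals hide differences between fractions: the 3'UTR share of a gene's tags was 69.0% for TFPI and 91.5% for TMEM123 in cytoplasmic mock, and 20.8% and 34.5% in nuclear mock.

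The strongest 3'UTR peak of TFPI, by mean in the cytoplasmic mock libraries, was at 187466264-187466284, 2034 nt from the 3' end of the gene, and held 528 tags in all. The strongest of TMEM123 was at 102398573-102398593, 2241 nt from the 3' end, with 164 tags. In the cytoplasmic arsenite comparison these were the peaks ranked 1 and 2 from the lowest of the 193897 tested, which is how the genes were chosen.

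In the cytoplasm the 3'UTR of both genes held far fewer HuR tags with arsenite, while the other peaks of the same genes were at overlapping levels. Those other peaks lie mostly in the intron and CDS_Retained_intron classes. Whether their tags come from the same RNA molecules as the 3'UTR tags is not known from these data. TFPI 3'UTR peaks summed to 180.8, 283.2 and 224.6 CPM in the 3 mock libraries (mean 229.5 ± 51.3, SD, n = 3). With arsenite they summed to 53.4, 51.2 and 45.9 CPM (50.2 ± 3.86, n = 3). The lowest mock library was above the highest arsenite library, and the means differed 4.58-fold. TMEM123 3'UTR peaks summed to 111.7, 161.9 and 138.1 CPM in mock (137.3 ± 25.1) and to 32.5, 29.6 and 29.9 CPM with arsenite (30.7 ± 1.60). The ranges again did not overlap, with a 4.48-fold difference of the means.

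On the log2(CPM + 2.28) scale used for all differences below, the 3'UTR sum changed by -2.12 ± 0.19 (SE) for TFPI and by -2.07 ± 0.20 for TMEM123, against a median of -0.30 over the 6689 genes compared. They ranked 46 and 60 from the lowest of these genes. With limma at a Benjamini-Hochberg adjusted 0.05, 22.4% of all genes were called in this comparison, 1420 lower and 80 higher. The background gives the setting only, since the comparison chose the genes.

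The sums of the other peaks behaved differently. TFPI had 113.8, 82.5 and 105.4 CPM there in cytoplasmic mock (100.6 ± 16.2) and 109.0, 98.3 and 100.2 CPM with arsenite (102.5 ± 5.71), so the ranges overlapped. TMEM123 had 10.6, 10.2 and 16.9 CPM in mock (12.6 ± 3.74) and 16.6, 17.1 and 13.2 CPM with arsenite (15.6 ± 2.10), which overlapped too. The differences were +0.04 ± 0.15 and +0.29 ± 0.25 on the log2 scale, and 16.8% of the 10083 genes with enough tags in such peaks were called, most of them (1455) higher. That count of 1698 genes rests on single libraries: it was 1 without arsenite replicate 2, 231 without arsenite replicate 3, and 601 to 1816 without each of the others. The 3'UTR made up 69.0% of TFPI tags in mock and 32.8% with arsenite, and 91.5% and 66.3% of TMEM123 tags.

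**Figure D1:**
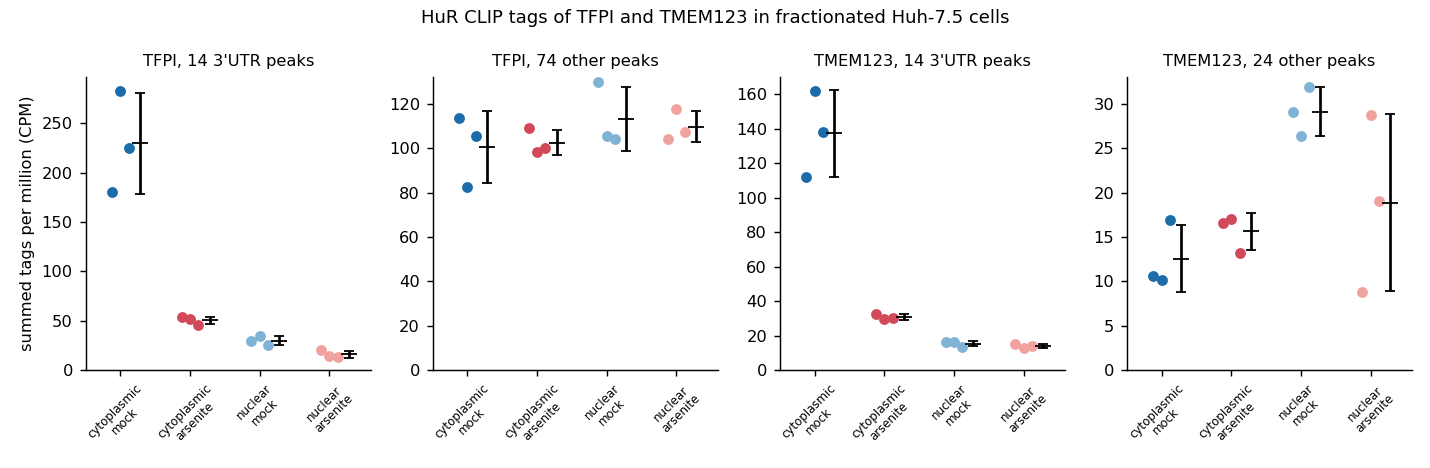
Summed CPM of the 3'UTR peaks and of all other peaks of TFPI and TMEM123 (y axes, each from 0) in the 12 fraction libraries (points), with mean and SD beside them. Both 3'UTR sums are highest in the cytoplasmic mock libraries (229.5 and 137.3 CPM on average) and far lower in the other 3 groups, whereas the other peaks of TFPI stay near 100 CPM in every group.

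The cytoplasmic difference ran over all 3'UTR peaks, though not evenly. All 14 TFPI 3'UTR peaks had a lower mean with arsenite, 7 of them without overlap of the libraries, where 21.3% of all 3'UTR peaks tested were lower without overlap. All 14 TMEM123 3'UTR peaks were lower as well, 11 without overlap. The strongest TFPI peak had 88.3, 119.2 and 106.5 CPM in mock and 4.33, 7.39 and 6.96 CPM with arsenite. That is a fall from 104.7 ± 15.5 to 6.23 ± 1.65 CPM, from 83, 117 and 101 tags to 6, 13 and 10. The strongest TMEM123 peak went from 34.0, 53.0 and 38.0 CPM to 0.72, 3.41 and 0.70 CPM, the last set resting on 1, 6 and 1 tags.

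Neighbouring sites differed in how much they kept. The TFPI peak at 187465557, which lies 707 nt closer to the 3' end than the strongest one, had 31.9, 57.0 and 46.4 CPM in mock and still had 31.8, 22.7 and 21.6 CPM with arsenite, so that it held the most tags of the 3'UTR under stress. The peak at 187465450, the next one towards the 3' end, went from 14.9, 43.8 and 24.3 CPM to 1.44, 2.84 and 1.39 CPM. Beyond it, the peak at 187465323 went from 6.38, 13.2 and 11.6 CPM to 2.89, 3.41 and 0.70 CPM, and the one at 187464390 from 8.51, 11.2 and 13.7 CPM to 0.72, 4.55 and 0.70 CPM. In TMEM123, the peak at 102397966 kept 7.94, 6.82 and 6.96 CPM of 19.1, 31.6 and 25.3 CPM. Its peak at 102397265 kept 9.39, 4.55 and 6.96 CPM of 12.8, 21.4 and 15.8 CPM. Both of these held more cytoplasmic tags with arsenite than the formerly strongest TMEM123 site.

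**Figure D2:**
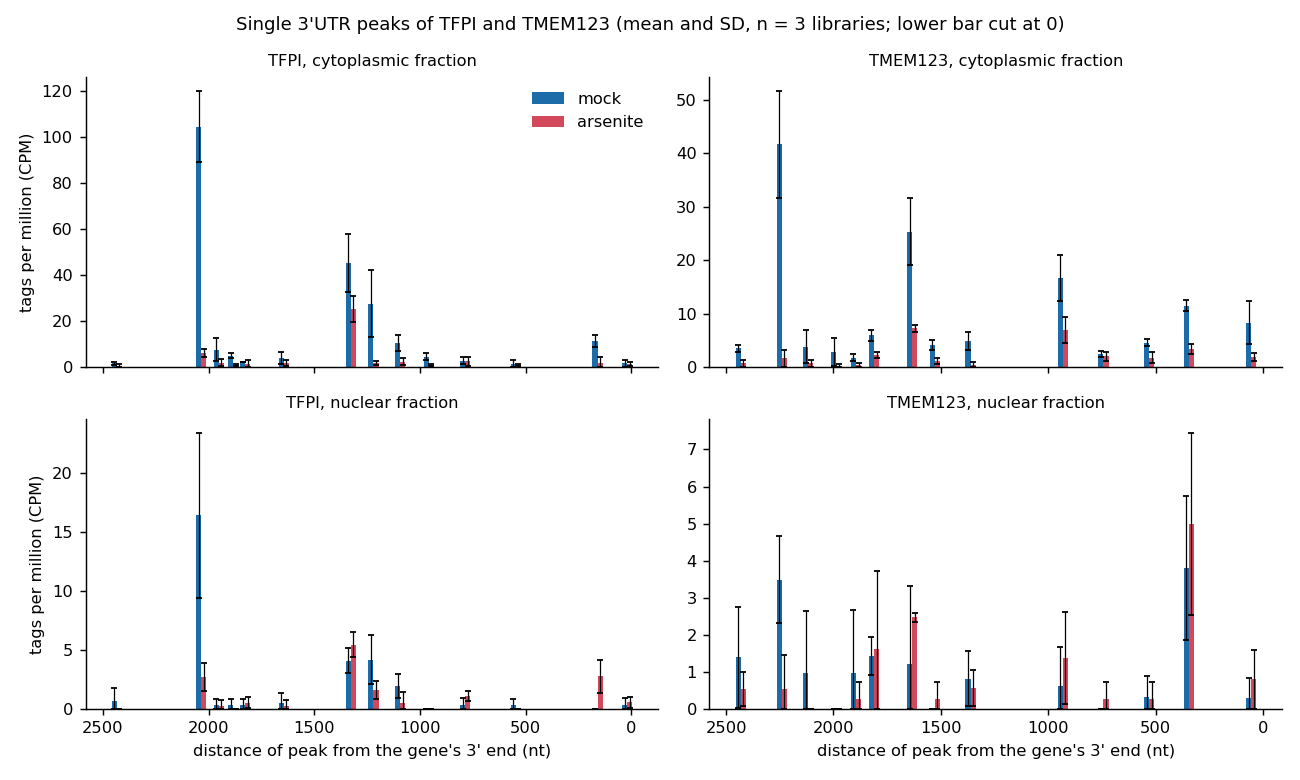
Mean CPM (y axes) of each 3'UTR peak of TFPI and TMEM123 against its distance in nt from the gene's 3' end (x axes), mock beside arsenite, with SD over 3 libraries and the lower bar cut at 0. In the cytoplasm the strongest TFPI peak falls from 104.7 to 6.23 CPM and the next one from 45.1 to 25.4 CPM, and in the nucleus the strongest TFPI peak falls from 16.4 to 2.71 CPM.

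Without the strongest peak, the cytoplasmic 3'UTR sum was still lower with arsenite for both genes. It was 124.9 ± 36.2 CPM in mock and 43.9 ± 5.07 CPM with arsenite for TFPI, and 95.6 ± 16.2 and 29.0 ± 2.81 CPM for TMEM123. The strongest peak held 48.8%, 42.1% and 47.4% of the TFPI 3'UTR tags in mock and 8.11%, 14.4% and 15.2% with arsenite, a difference of -33.5 percentage points. For TMEM123 its share went from 30.2% to 5.36% on average. Among 577 genes with at least 10 3'UTR tags in every fraction library the median difference in the share of the strongest peak was -6.57 points, and 43.5% of the genes were lower without overlap.

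The nuclear libraries took no part in the choice of the genes, and there TFPI was called lower while TMEM123 was not called. TFPI 3'UTR peaks summed to 29.1, 34.5 and 25.1 CPM in nuclear mock (29.6 ± 4.74) and to 20.0, 14.4 and 12.99 CPM with arsenite (15.8 ± 3.72). No arsenite library reached the lowest mock library. The limma difference was -0.83 ± 0.22 with an adjusted p of 0.0217, and edgeR's quasi-likelihood test on the recovered tags gave -0.90 with an adjusted p of 0.0142. Of the 6002 genes tested, 20% were called in either direction, 1153 higher and only 46 (0.766%) lower, and the median gene was higher by 0.39. TFPI ranked 57 from the lowest. The call rests on each of 4 libraries: the adjusted p was 0.0617 without mock replicate 1, 0.0808 without mock replicate 2, 0.0863 without arsenite replicate 2 and 0.101 without arsenite replicate 3.

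TMEM123 3'UTR peaks summed to 16.0, 16.4 and 13.5 CPM in nuclear mock (15.3 ± 1.56) and to 15.2, 12.8 and 13.9 CPM with arsenite (13.96 ± 1.21). These ranges overlapped, and the difference of -0.11 ± 0.21 did not pass the test (limma adjusted p = 0.731, edgeR adjusted p = 0.822). Taken within each library, TFPI stood above TMEM123 by 0.85 ± 0.11 on the log2 scale in nuclear mock and by 0.14 ± 0.21 with arsenite. That difference between the genes narrowed by 0.71 without overlap, and the two-sided exact permutation p of 0.1 is the smallest that 3 against 3 libraries can give.

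The nuclear difference of TFPI lay in its strongest peak. It had 16.0, 23.6 and 9.66 CPM in mock (11, 26 and 10 tags) and 4.004, 2.40 and 1.73 CPM with arsenite (5, 3 and 2 tags). As a single peak it changed by -1.86 ± 0.34, which missed the threshold in limma (adjusted p = 0.0643) and passed it in edgeR (-2.55, adjusted p = 0.00382). These tools called 0.034% and 0.0854% of all 200232 nuclear peaks lower. The rest of the TFPI 3'UTR had 13.1, 10.9 and 15.4 CPM in nuclear mock and 16.0, 11.999 and 11.3 CPM with arsenite, ranges that overlapped, with means of 13.2 and 13.1 CPM. Of the 14 TFPI 3'UTR peaks, 8 had a lower nuclear mean with arsenite, 5 a higher one and 1 the same.

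The share held by the strongest peak was lower with arsenite in the nucleus too. For TFPI it was 55.0%, 68.4% and 38.5% in nuclear mock (54.0% ± 15.01) and 20.0%, 16.7% and 13.3% with arsenite (16.7% ± 3.33). The libraries did not overlap, and the difference of -37.3 points had a two-sided exact permutation p of 0.1, the smallest possible (0.267 after adjustment over the 8 share comparisons tested). Among the same 577 genes the nuclear median was -1.08 points, 17% were lower without overlap, and TFPI ranked 3 from the lowest. TMEM123 went from 23.5% ± 10.6 to 3.51% ± 6.08 (-20.0 points, exact p = 0.1, adjusted p = 0.267) and ranked 36. Its nuclear values rest on 2, 3 and 5 tags in mock and 2, 0 and 0 tags with arsenite, where a count of 0 allows up to 3 tags.

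**Figure D3:**
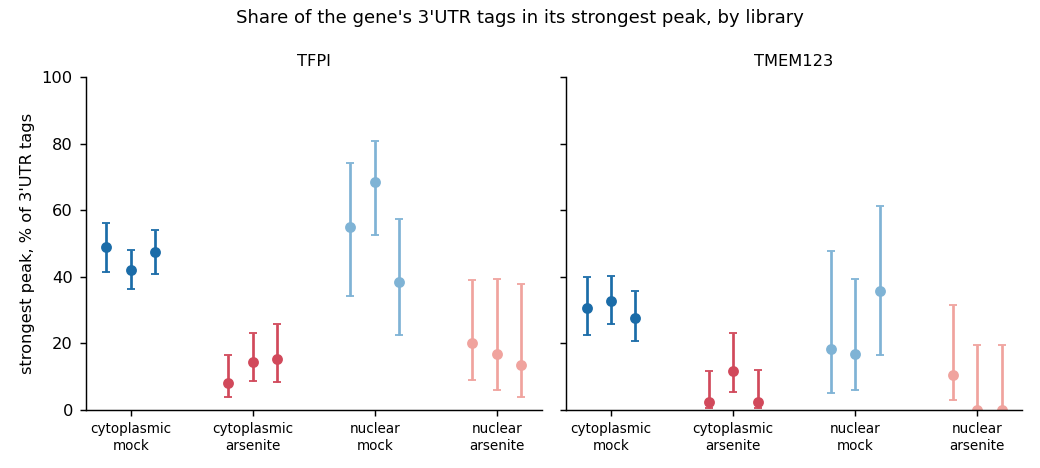
Share of the gene's 3'UTR tags that lie in its strongest peak (y axis, percent) in each of the 12 fraction libraries, with 95% Wilson intervals for counting error. In both genes and both fractions the 3 arsenite libraries lie below the 3 mock libraries, for TFPI in the nucleus at 13.3% to 20.0% against 38.5% to 68.4%.

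Outside the 3'UTR neither gene was called in the nucleus. TFPI had 129.7, 105.5 and 104.3 CPM in its other peaks in mock and 104.1, 117.6 and 107.4 CPM with arsenite, a difference of -0.04 ± 0.12 (limma adjusted p = 0.895). TMEM123 had 29.1, 26.4 and 31.9 CPM in mock and 8.81, 28.8 and 19.1 CPM with arsenite. Its difference of -0.69 ± 0.28 (-1.03 to -0.28 when each library was left out) did not pass (adjusted p = 0.200), although it was larger than that of its 3'UTR. In this comparison 3.9% of genes (383) were called, and 3 to 199 when each library was left out. The arsenite library at 8.81 CPM lay well below the other 2, one of which was within the mock range. The 3'UTR share of all TFPI tags was 20.8% in nuclear mock and 12.6% with arsenite (-8.20 points, exact p = 0.1, adjusted p = 0.267), and that of TMEM123 was 34.5% ± 4.34 and 45.4% ± 16.5 (exact p = 0.4).

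**Figure D4:**
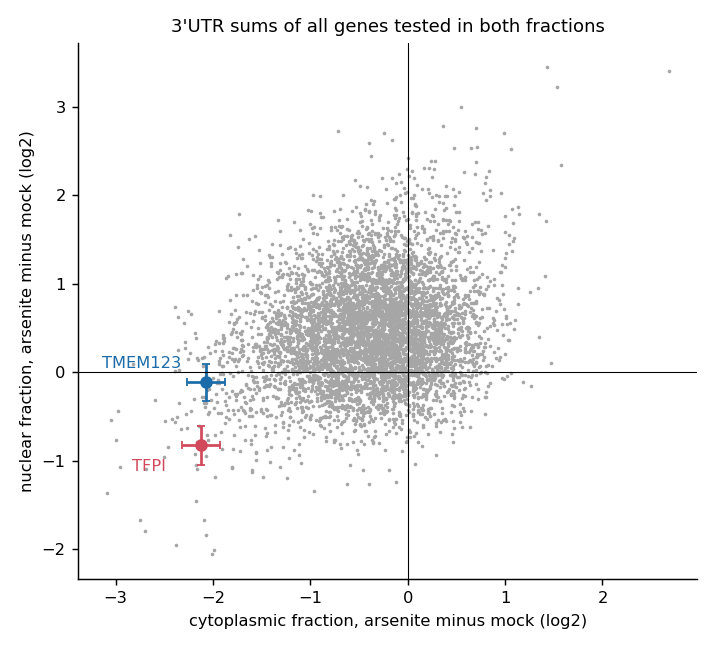
Arsenite minus mock on the log2 scale for the 3'UTR sums of the 5737 genes tested in both fractions (grey points), the cytoplasmic fraction on the x axis and the nuclear fraction on the y axis, with TFPI and TMEM123 drawn with their SE. Both genes lie far to the left (-2.12 and -2.07); in the nucleus TFPI lies at -0.83 and TMEM123 at -0.11, while the median of all genes tested there was 0.39.

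Of the 5737 genes tested in both fractions, 1375 were called lower in the cytoplasm. In the nucleus 31 of these were called lower and 295 were called higher. Over all 5737 genes, 42 were called lower in the nucleus, TFPI among them.

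The named peaks outside the 3'UTR showed no single direction. The strongest intron peak of TFPI, at 187552660, had 14.9, 14.3 and 10.5 CPM in cytoplasmic mock and 5.78, 8.53 and 7.65 CPM with arsenite, without overlap. In the nucleus it had 21.9, 12.7 and 14.5 CPM in mock and 11.2, 17.6 and 6.06 CPM with arsenite, with overlap. The intron peak at 187551960 beside it had 12.8, 5.09 and 10.5 CPM in cytoplasmic mock and 10.1, 11.9 and 4.17 CPM with arsenite. Going the other way, the TFPI peak at 187487455 (CDS_Retained_intron) had 0, 1.02 and 0 CPM in cytoplasmic mock and 3.61, 6.25 and 2.09 CPM with arsenite, near its nuclear levels of 5.83, 5.46 and 3.86 CPM in mock and 3.20, 5.60 and 3.47 CPM with arsenite. That peak was named because it was called higher in the nucleus than in the cytoplasm in mock. Its low cytoplasmic mock level was thus part of the choice, and nothing is read from its rise. Of the 74 TFPI peaks outside the 3'UTR, 28 had a lower and 44 a higher cytoplasmic mean with arsenite, and 46 passed the filter on low values. Of these 46, 7 were lower and 9 higher without overlap, against 4.65% and 17.8% of all peaks outside the 3'UTR that passed it, and nothing is read from these counts since the filter can favour peaks that are high in 1 group.

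The 8 TFPI peaks of the class TE were higher as a sum in the cytoplasm with arsenite, at 33, 32 and 45 tags (24.4 ± 6.58 CPM) against 15, 7 and 9 in mock (10.9 ± 4.57 CPM), without overlap and without a test. Most of that rested on 2 of them, picked here after their values were seen: the peak at 187527951 went from 10 tags in all mock libraries to 41 with arsenite, and the one at 187532053 from 5 to 46. Each of the other 6 held 0 to 8 tags in mock and 1 to 10 with arsenite. In the nucleus the 8 TE peaks had 12.8 ± 3.74 CPM in mock and 16.7 ± 4.80 CPM with arsenite, and the ranges overlapped. For the setting, of all single peaks outside the 3'UTR tested in the cytoplasm, 17.8% were higher without overlap with arsenite and 4.65% lower. In TMEM123 the strongest peak outside the 3'UTR, at 102447991, had 5.32, 3.06 and 2.11 CPM in cytoplasmic mock and 3.61, 3.41 and 3.48 CPM with arsenite. Its nuclear values of 4.37, 10.0 and 14.5 CPM in mock and 2.40, 13.6 and 6.06 CPM with arsenite overlapped as well.

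Set side by side, the fractions differed in which part of each gene carried the tags. In mock cells nuclear minus cytoplasmic 3'UTR sums were -2.85 ± 0.21 on the log2 scale for TFPI and -2.98 ± 0.21 for TMEM123, where 57.1% of genes were called and the median was -0.98. All 14 3'UTR peaks of each gene were lower in the nucleus. The other peaks went the opposite way for TMEM123, by +1.11 ± 0.24, and differed by +0.17 ± 0.16 for TFPI, where 27.9% of genes (2644) were called, and 1172 to 2167 when each library was left out. With arsenite the 3'UTR differences were smaller, -1.55 ± 0.20 for TFPI and -1.02 ± 0.20 for TMEM123, with 14.1% of genes called and a median of -0.17. Their other peaks then differed by +0.10 and +0.13, where 2.91% of genes (303) were called, and 38 to 224 when each library was left out. Over all 16 groups, the cytoplasmic mock libraries had the highest mean 3'UTR level of both genes and cytoplasmic arsenite the next, without overlap between them or with nuclear mock, which came after them. From there on neighbouring groups had overlapping ranges, except that the enriched NLS mock libraries of TFPI did not overlap with the G3BP enriched mock libraries below them. Of those G3BP libraries, 5 of 6 held no TFPI 3'UTR tag. Groups further down the order did reach the cytoplasmic arsenite range, such as TFPI in NLS input mock (up to 48.8 CPM) and TMEM123 in NES enriched mock (up to 52.9 CPM).

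In input libraries, which hold HuR from whole cells, no loss of 3'UTR tags was detected for either gene. TFPI had 0 to 48.8 CPM (median 13.2) in the 8 mock libraries, 5 of which held a 3'UTR tag, and 0 to 37.5 CPM (median 17.3) in the 9 arsenite libraries, 8 of which held one. TMEM123 had 0 to 14.4 CPM (median 5.18) in mock and 0 to 24.9 CPM (median 4.95) with arsenite. The TFPI ranges overlapped over most of their length, while 3 arsenite inputs of TMEM123, at 24.9, 22.5 and 15.7 CPM, lay above its highest mock input. With line and library set in the limma fit, arsenite minus mock was +0.64 ± 0.65 for TFPI (adjusted p = 0.543) and +0.21 ± 0.55 for TMEM123 (adjusted p = 0.817). This comparison called 0% of the 3803 genes in limma, with 739 at an unadjusted p under 0.05, and 24.1% (917 genes) in edgeR, 910 of them higher. Neither gene was among those in edgeR either (+0.02, adjusted p = 0.973, and +0.16, adjusted p = 0.761).

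The errors of the input fits are wide. Pooling tags over libraries gave 21.9 CPM in mock and 23.6 CPM with arsenite for TFPI (136 and 188 tags), and 6.92 and 12.7 CPM for TMEM123 (43 and 101 tags). The other peaks held 29.0 and 34.6 CPM for TFPI and 3.86 and 4.28 CPM for TMEM123. By library set, TFPI arsenite minus mock was +0.55, -0.05 and +1.40 in JL0361, JL0388 and JL1024, and TMEM123 was +0.91, +0.04 and -0.17. The set JL0388 has 1 input library of each line and treatment. There TFPI had 48.8 CPM in mock and 37.5 CPM with arsenite in the NLS line, 19.2 and 17.3 CPM in the NES line, and 22.2 and 28.9 CPM in the G3BP line, so the direction was not the same in the 3 lines of that set. JL1024 also has 1 input library of each, and TFPI was higher with arsenite in all 3 lines there, from few tags: 7.24 and 8.97 CPM (19 and 16 tags) in the NLS line, 0 and 8.16 CPM (0 tags and 1 tag) in the NES line, and 0 and 5.53 CPM (0 tags and 1 tag) in the G3BP line. The 0 tags of those NES and G3BP mock libraries allow levels of up to 24.8 and 133.5 CPM, so a difference in these lines was not detectable at this depth.

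The strongest TFPI peak held a smaller share of the 3'UTR tags of input libraries with arsenite, by an amount that did not pass a test over unmatched libraries. In JL0388 its share was 49.4% in mock and 32.6% with arsenite in the NLS line, 56.3% and 42.9% in the NES line, and 47.1% and 25% in the G3BP line, so it was lower in each of the 3 lines. In JL1024 it was 26.3% and 6.25% in the NLS line, from 5 tags and 1 tag, and pooled over the libraries of JL0361 it was 3 of 5 tags in mock and 23 of 53 with arsenite. Pooled over all input libraries it was 64 of 136 tags in mock (47.1%, 95% Wilson interval 38.9% to 55.4%) and 61 of 188 with arsenite (32.4%, 26.2% to 39.4%). Over libraries with at least 10 3'UTR tags the mean was 44.7% ± 12.9 (n = 4) in mock and 29.8% ± 16.4 (n = 5) with arsenite, a difference of -14.97 points with a two-sided exact permutation p of 0.222 (0.444 adjusted). That test did not match libraries by line or set, and JL0361 entered it with arsenite libraries only. The TFPI peak at 187465557, which kept the most tags in the stressed cytoplasm, differed by +0.67 ± 0.45 in the input libraries (limma adjusted p = 0.591, edgeR adjusted p = 0.291). For TMEM123 the strongest peak held 9 of 43 tags in mock and 11 of 101 with arsenite (exact p over libraries = 0.514, adjusted 0.588). The sets went different ways: in JL0388 it held 2 of 29 tags in mock and 4 of 42 with arsenite, a slightly higher share, whereas it held 2 of 3 and 6 of 55 tags in JL0361 and 5 of 11 and 1 of 4 in JL1024.

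Enriched libraries held too few tags of these genes to compare treatments closely. TFPI had 9 3'UTR tags in mock and 12 with arsenite near the NLS construct, and 4 and 3 near NES. Near G3BP1 it had 5 tags in mock, all in 1 of 6 libraries, and 20 with arsenite in 4 of 7 libraries, from total tags of 1455493 and 1442950. TMEM123 had 0 and 4 tags near NLS, 2 and 2 near NES, and 9 and 17 near G3BP1. The limma differences of the 3'UTR sums that could be fitted were -0.04 ± 0.69 for TFPI near NLS (adjusted p = 0.983), -0.27 ± 0.77 for TFPI near NES (adjusted p = 0.898) and +0.67 ± 0.89 for TMEM123 near G3BP1 (adjusted p = 0.586), which ranged from 0.15 to 1.16 when each library was left out. In these comparisons limma called 0% of genes, with 114, 51 and 355 at an unadjusted p under 0.05 near NLS, NES and G3BP1, and edgeR called 0, 0 and 124 genes, the last being 8.75%. The TFPI difference near G3BP1 did not enter the fit, because too few libraries held a tag. These limma fits kept apart the replicate pairs that were counted as 1 sample in group means. With such pairs counted once, TFPI near NLS was +0.28.

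**Figure D5:**
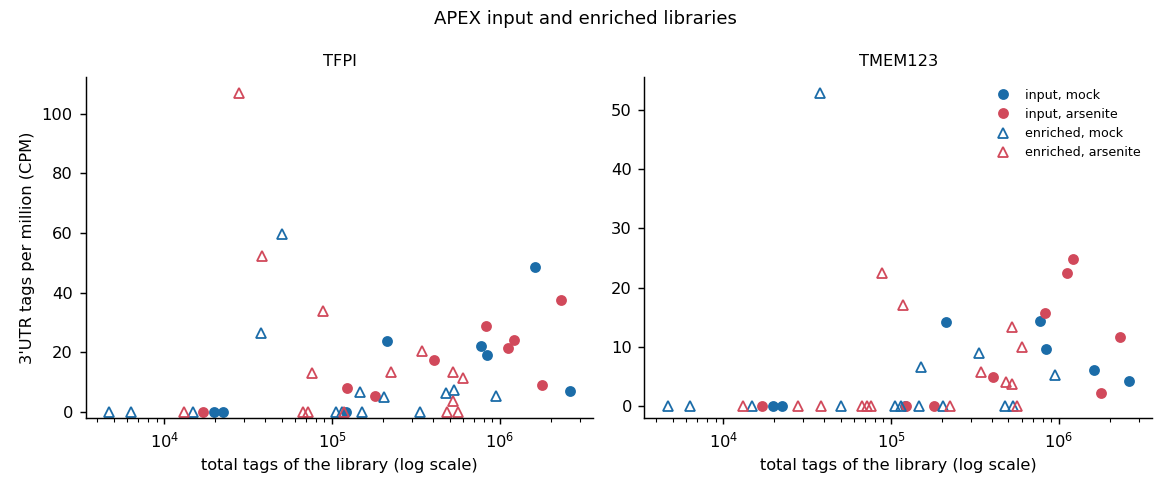
3'UTR CPM of TFPI and TMEM123 (y axes) against the total tags of the library (x axes, log scale) in the 17 input libraries (filled circles) and 29 enriched libraries (open triangles), mock and arsenite in different colours. Mock and arsenite symbols are mixed in both genes, and many libraries of low depth lie at 0.

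Other genes of the coagulation pathway were set beside TFPI. Of 34 listed genes of coagulation and its inhibitors, 10 had enough 3'UTR tags in the cytoplasm, and 5 of these were called lower with arsenite (FGA, FGB, FGG, PROS1 and SERPINC1) and 0 higher, with a median of -1.06 against -0.30 for all genes, of which 21.2% were called lower. In the nucleus 2 of 8 were called lower (F2 and FGB) and 0 higher, with a median of -0.28 against 0.39 and 0.766% of all genes called lower. The hepatocyte genes ALB, APOB and FGB, the last also on the coagulation list, went the same way. All 3 were called lower in the cytoplasm (median -2.10), and ALB and FGB in the nucleus (median of the 3, -1.10). FGB, the beta chain of fibrinogen, had 135.2 CPM in cytoplasmic mock and 28.1 CPM with arsenite, and 26.2 and 10.96 CPM in the nucleus (-1.10 ± 0.23, adjusted p = 0.00713). PROS1, the anticoagulant protein S, had 98.3 and 31.3 CPM in the cytoplasm and 16.4 and 9.91 CPM in the nucleus, where its -0.61 did not pass (adjusted p = 0.106). In the input libraries limma called 0 of the 5 coagulation genes tested and 0% of all 3803 genes, so nothing about the list is read from that.

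Of 12 listed sialomucins and related membrane glycoproteins, set beside TMEM123, 3 of the 6 tested were called lower in the cytoplasm (CD164, CD99 and PODXL), where 21.2% of all genes were, and 0 of 6 in the nucleus, where 0.766% of all genes were. CD164, an endolysosomal sialomucin, had 189.9 CPM in cytoplasmic mock and 80.0 CPM with arsenite. In the nucleus it had 34.4 and 29.0 CPM, and its difference of -0.21 did not pass (adjusted p = 0.467). Of 22 established HuR target genes, 19 were tested, and 5 (ACTB, CCNA2, CTNNB1, IGF1R and PTMA) were called lower in the cytoplasm, with a median of -0.33, close to the 21.2% called lower and the median of -0.30 over all genes. In the nucleus 9 of 19 were called higher and 0 lower, with a median of 0.87, where 19.2% of all genes were called higher. TFPI was thus called in the nucleus in the direction opposite to the 9 called HuR targets, and TMEM123 was not called.

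The genes whose 3'UTR sums were most like those of TFPI over the 12 fraction libraries were HAVCR1 (Pearson r = 0.987), TMCO1 (0.985), CANX (0.983) and STT3B (0.983), among 1015 genes compared. For TMEM123 they were CANX (0.992), CDH2 (0.989), TMED7 (0.989) and CALR (0.989), among 1560. TFPI and TMEM123 correlated with each other at 0.980. These values describe libraries that share their groups and depth. CANX had 849.7 ± 106.8 CPM in cytoplasmic mock and 257.9 ± 20.1 CPM with arsenite, and HAVCR1 had 230.9 ± 28.6 and 73.4 ± 6.68 CPM. The nuclear libraries were among the 12 over which these genes were picked, so their nuclear levels are not independent of that choice and are given as a description. The means of the 4 genes most like TFPI were lower with arsenite there. TMCO1 had 28.2 ± 8.65 CPM in nuclear mock and 12.3 ± 3.33 CPM with arsenite, HAVCR1 56.7 ± 9.48 and 41.9 ± 8.77 CPM, STT3B 64.5 ± 0.30 and 51.7 ± 4.49 CPM, and CANX 135.5 ± 5.33 and 117.2 ± 15.99 CPM. Of the genes most like TMEM123, CDH2 and TMED7 had higher nuclear means with arsenite (30.4 and 16.2 CPM against 25.1 and 14.4 CPM) and CALR a lower one (38.4 against 43.9 CPM).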

How the data were processed

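The authors deposited 1 table of signal per peak and library. Its values are, from the numbers themselves, CLIP tags divided by the library total: 100% of values in every column gave whole tags within 0.02 tags. Bowtie2, SAMtools, bedtools, HOMER and build GRCh38.p14 are named in the submitters' processing notes, without versions. The labels' protocols give UV crosslinking at 400 and 200 mJ/cm2. The peak caller's settings and whether coordinates count from 0 or 1 are not given in the sources used here, and coordinates are printed as the table has them. Of 395471 lines, 8257 repeats were dropped, leaving 387214 peaks of 20 nt. Of these, 84358 carry no gene name.

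Tags were scaled to CPM. Single peaks, each gene's summed 3'UTR peaks (7623 genes) and its summed other peaks (12871 genes) were fitted over the whole table with limma 3.58.1 (lmFit, eBayes with trend, R 4.3.3) on log2(CPM + 2.28), where the pseudocount is the median of the libraries' smallest non-zero values and understates changes of low levels. Features with non-zero values in fewer libraries than the smaller group's size were left out. All p-values are two-sided, and calls were made at a Benjamini-Hochberg adjusted 0.05. Line and library set (the prefix of the description, treated as a batch) were covariates in the input fit, and library set in the enriched fits. edgeR 4.0.16 (quasi-likelihood) on the recovered tags was an alternative, and called 1598 genes on cytoplasmic and 1095 on nuclear 3'UTR sums. Shares were compared between libraries with exact permutation tests. Both model scripts were tested on simulated data. Permutation tests ran in scipy 1.17.1 under Python 3.11.15, and tables were handled with pandas 2.3.3. Figures were drawn in matplotlib 3.10.9.

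The 2 genes and the gene lists were chosen with earlier results of these data known. Peaks are named by rule: per gene the 3 3'UTR and 2 other peaks with the highest mean over the fraction libraries, the peak that led to the choice, and peaks called outside the cytoplasmic comparison. Genes of like pattern are the 4 with the highest Pearson correlation. Of 32 replicate pairs within a set, 5 showed no difference beyond sampling noise. Of these, 4 were counted as 1 sample in group means, because the test did separate pairs of another set at that depth: replicates 1 and 2 of NLS enriched mock, of NLS enriched arsenite and of NES enriched arsenite, and replicates 4 and 5 of G3BP enriched arsenite. Replicates 3 and 4 of G3BP enriched mock, with 1831 and 679 tags in peaks, were too shallow for that check and were kept apart. Intervals and the floor of 3 tags cover counting error only, since no molecular identifiers are recorded. Sequences under the peaks were not analysed here.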

Additional observations from a re-analysis of the deposited data

Results flagged for a closer look

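Of 27 sets of 4 to 10 libraries, 11 had 1 library that stood apart from the rest by Dixon's 95% limit, where chance flags about 1 in 20. All were enriched libraries, and 8 of them were the only library of their set with a tag.

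In the G3BP enriched arsenite libraries, replicate 4 (averaged with the near-identical replicate 5) had 70.4 CPM on the TFPI 3'UTR, with 13.4 CPM next, and 41.3 CPM in the strongest TFPI peak, with 5.72 CPM next. The TMEM123 sum of other peaks was 8.54 CPM in replicate 6 and its strongest peak 3.31 CPM in replicate 2, all others being at 0. In G3BP enriched mock, the TFPI 3'UTR had 5.30 CPM in replicate 6 and 0 elsewhere, and the other TFPI peaks had 214.5 CPM in replicate 4, from 1 tag, with 11.97 CPM next. The other TMEM123 peaks had 2.12 CPM in replicate 6 and its strongest peak 5.98 CPM in replicate 5, with 0 elsewhere. In NES enriched mock, replicate 2 alone had tags in the strongest TFPI peak (19.9 CPM) and in the other TMEM123 peaks (19.9 CPM), and replicate 1 alone in the TMEM123 3'UTR (52.9 CPM).

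Of 23 sums and named peaks, 2 moved in opposite directions in the fractions in every library, a difference that was not tested. Both peaks were named because they were called between the mock fractions, and that choice favours such moves. The same count was not made over all peaks, so nothing is read from it. The TFPI 3'UTR peak at 187464390 had 0 CPM in all nuclear mock libraries and 2.40, 1.60 and 4.33 CPM with arsenite, a mean higher by 2.78 CPM in the nucleus beside a change of -9.15 CPM in the cytoplasm. As a single nuclear peak it was not called (limma adjusted p = 0.21). The TMEM123 peak at 102418479 (CDS_Retained_intron) changed by -2.76 CPM in the nucleus, from 5.83, 2.73 and 3.86 CPM to 0.80, 1.60 and 1.73 CPM (adjusted p = 0.303). In the cytoplasm it was higher by 0.66 CPM, with 0 CPM in every mock library.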

How the results depend on the processing

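Over 983 results under alternative settings, 824 counted as unchanged, 89 lost and 4 gained a call, 18 reversed and 48 moved. The cause of these changes was not tested. Most differences and shares counted as unchanged when they kept their direction and side of the threshold. Cytoplasmic arsenite differences, which had no test, did so when they moved by less than the SD between libraries, whatever their sign. Gene counts did so when they stayed within a fixed ratio. The cytoplasmic TMEM123 3'UTR difference was -1.87 with a pseudocount 4 times as large. The nuclear TFPI difference ranged from -0.99 to -0.71 when each library was left out. Reversals on 3'UTR sums concerned input and enriched libraries only: TMEM123 in input was -0.034 without input libraries under 30000 tags (chosen after seeing the data), -0.17 within JL1024 and -0.16 to 0.47 leaving out each library. TFPI in input was -0.047 within JL0388. TFPI near NLS was 0.11 with the larger pseudocount, 0.67 in edgeR, 0.28 with near-identical pairs counted once and -0.52 to 0.59 leaving out each library, and TFPI near NES was -0.58 to 0.15. Leaving out each library also turned the other peaks of TFPI in the cytoplasm (-0.095 to 0.13), in the nucleus (-0.093 to 0.062) and in input (-0.047 to 0.64) and those of TMEM123 between the arsenite fractions (-0.21 to 0.53). It turned 3 share differences: the TFPI 3'UTR share in input (-1.36 to 5.16 points) and the strongest-peak share of TMEM123 between the arsenite fractions (-5.36 to 1.23) and in input (-22.0 to 0.78).

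Counts of genes called on 3'UTR sums, leaving out each library, were 744 to 1647 in the cytoplasm (1500 with all; 744 without mock replicate 2, and 889, 928 and 876 without arsenite replicates 1, 2 and 3), 575 to 911 in the nucleus (1199 with all; 575 and 582 without arsenite replicates 1 and 2), and 273 to 751 between the arsenite fractions (930 with all; lowest without cytoplasmic arsenite replicate 2). In input limma called 0, up to 299 leaving out each library (without G3BP arsenite replicate 1) and 97 without libraries under 30000 tags, and edgeR 917. Near NLS, 3 genes were called with the larger pseudocount, 1 without the filter, 1 with pairs counted once and 0 to 2 leaving out each library. Near G3BP1 edgeR called 124, and limma 0 to 73 leaving out each library (73 without arsenite replicate 1). Scaling to tags in peaks moved the medians of the G3BP enriched fits by -0.23 (3'UTR sums), -0.20 (other peaks) and -0.19 (single peaks), and those of every other comparison by less than 0.1. It raised the nuclear calls on other peaks from 274 to 424 lower and left 109 higher. Between the arsenite fractions it raised the calls on other peaks from 206 higher and 97 lower (68.0% higher) to 380 and 102 (78.8%).

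Same-numbered fraction libraries deviated together little or not at all (correlations -0.01 to 0.08), which cannot show whether the numbers pair them. With the replicate number as a block, the nuclear TFPI difference was -0.83 (limma adjusted p = 0.0199), and 1193 genes were called in the nucleus and 1592 in the cytoplasm. With library set and the replicate within it as a block, TMEM123 near G3BP1 was 0.49. Depth limits the input and enriched libraries: in 3 of 8 mock inputs no TFPI 3'UTR tag was seen.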
